A study of Mus musculus with 13 samples.

Results

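The tumor necrosis factor (TNF) ligand and receptor superfamily was followed across mouse mammary organoids, fragments of epithelium cultured in a gel. Members were all genes whose name on the array is Tnfsf or Tnfrsf followed by a number and at most 1 letter, with 1 ligand left out, which gave 33 genes (11 ligands and 22 receptors) of 28786 genes on the array. They were read by 45 of 41174 probes. Members with other names, such as Tnf and Cd40, are given further on as a separate list. RefSeq now calls 3 of the genes Relt (Tnfrsf19l here), Cd27 (Tnfrsf7) and Cd70 (Tnfsf7).

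Tumor organoids came from MMTV-PyMT mice, in which a mammary tumor virus promoter drives the polyoma middle T oncogene, aged 12 to 16 weeks, from the largest tumor of each mouse. Normal organoids came from the mammary glands of FVB mice, whose age the labels do not give. Both tissues were grown for 4 days with 2.5 nM FGF2, either in a gel of rat tail collagen I at 3 mg/ml or in Matrigel, a basement membrane extract. Each of the 4 groups holds 3 mice: tumor collagen I A, B and C, tumor Matrigel A, B and C, normal collagen I A, B and C, and normal Matrigel A, B and D. Letters name the mouse within a tissue, so gels were compared in tumor organoids of the same 3 mice and in normal organoids that share mice A and B.

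Ligands of this superfamily are mostly trimeric membrane proteins, some of them shed, that cluster receptors on the same or a neighbouring cell. Receptors with a death domain (Tnfrsf1a, Tnfrsf10b, Tnfrsf21, Tnfrsf25) can recruit adaptors that lead to caspase activation, while most others bind TRAF adaptors and activate NF-kB and MAP kinases. A few members, such as Tnfrsf11b, Tnfrsf22 and Tnfrsf23, lack that signalling part and act as decoys. In epithelium and in tumors the family is known for inflammation, cell death and exchange with immune cells.

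Levels are given as percent of the 75th-percentile signal of the same array, and a probe was scored as well above background or not by the scanner software. That 75th percentile was 690 to 812 intensity units on tumor collagen I arrays, 384 to 570 on tumor Matrigel arrays, 972 to 1218 on normal collagen I arrays and 672 to 1101 on normal Matrigel arrays. The share of spots well above background was 62.1 to 69.1%, 56.6 to 58.6%, 64.3 to 71.4% and 63.3 to 69.0% in the same order of groups, so tumor Matrigel arrays were the dimmest. Probe intensities measure RNA of the whole organoid culture, in which fewer cells of a type and less RNA per cell cannot be told apart.

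Marker genes of other cells were read on the same arrays. The summed level of 7 T and NK cell genes was 14.5 to 28.4% in tumor collagen I, 20.8 to 24.8% in tumor Matrigel, 14.4 to 21.3% in normal collagen I and 15.7 to 21.4% in normal Matrigel. Cd2, Cd3g and Cd8a were well above background on no tumor array. The 10 macrophage and myeloid genes summed to 3181 to 6883%, 4468 to 6755%, 9264 to 10667% and 3659 to 5716% in that order, sums that are mostly Cd14 and Lyz2. Of 9 tested myeloid genes 0 were higher and 6 lower in tumor collagen I than in normal collagen I (median -2.77). Of all 18274 genes tested 3.66% were higher and 5% lower there (median 0.05). The pan-leukocyte member Ptprc was well above background on no tumor array of either gel. The 6 endothelial genes summed to 9.78 to 16.7% and 24.0 to 52.2% in tumor collagen I and tumor Matrigel, against 329 to 638% and 636 to 844% in normal collagen I and normal Matrigel. The 6 fibroblast genes summed to 339 to 598% and 225 to 277% in tumor collagen I and tumor Matrigel, against 1599 to 4077% and 956 to 6727% in normal collagen I and normal Matrigel. The 6 luminal epithelial markers summed to 60958 to 76565%, 103923 to 152988%, 56003 to 65932% and 58457 to 83676% in the order of groups above, so luminal epithelial RNA was present on every array. Of these 6 genes, 4 were called higher and 0 lower in tumor Matrigel than in normal Matrigel (median 0.88). In tumor collagen I against tumor Matrigel 0 were higher and 3 lower (median -0.67). Under quantile normalization 1 of these 4 and 1 of these 3 calls remained. Of all genes 51.8% and 27.9% were called in these comparisons (medians 0.09 and -0.05). Of 5 basal epithelial genes 1 was higher and 1 lower in the first, and 0 were called in the second. The part of these cell types in the results below was not tested unless a value is given.

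Of the 33 members, 25 passed the filter for testing (6 ligands and 19 receptors), which asked for a group in which all arrays measured the probe well above background. Of these, 17 were well above background on all 12 arrays. Tnfrsf13b, Tnfrsf17, Tnfrsf8, Tnfsf12, Tnfsf13b, Tnfsf15, Tnfsf4 and Tnfsf8 were not tested. Tnfrsf17 and Tnfsf12 were well above background on 0 of 12 arrays, Tnfrsf8 and Tnfsf4 on 1 array each, Tnfsf15 and Tnfsf8 on 4 each, and Tnfrsf13b and Tnfsf13b on 6 each. Passing through 1 bright group favours members that differ between groups, so counts below describe the 25 and not the family.

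**Figure D1:**
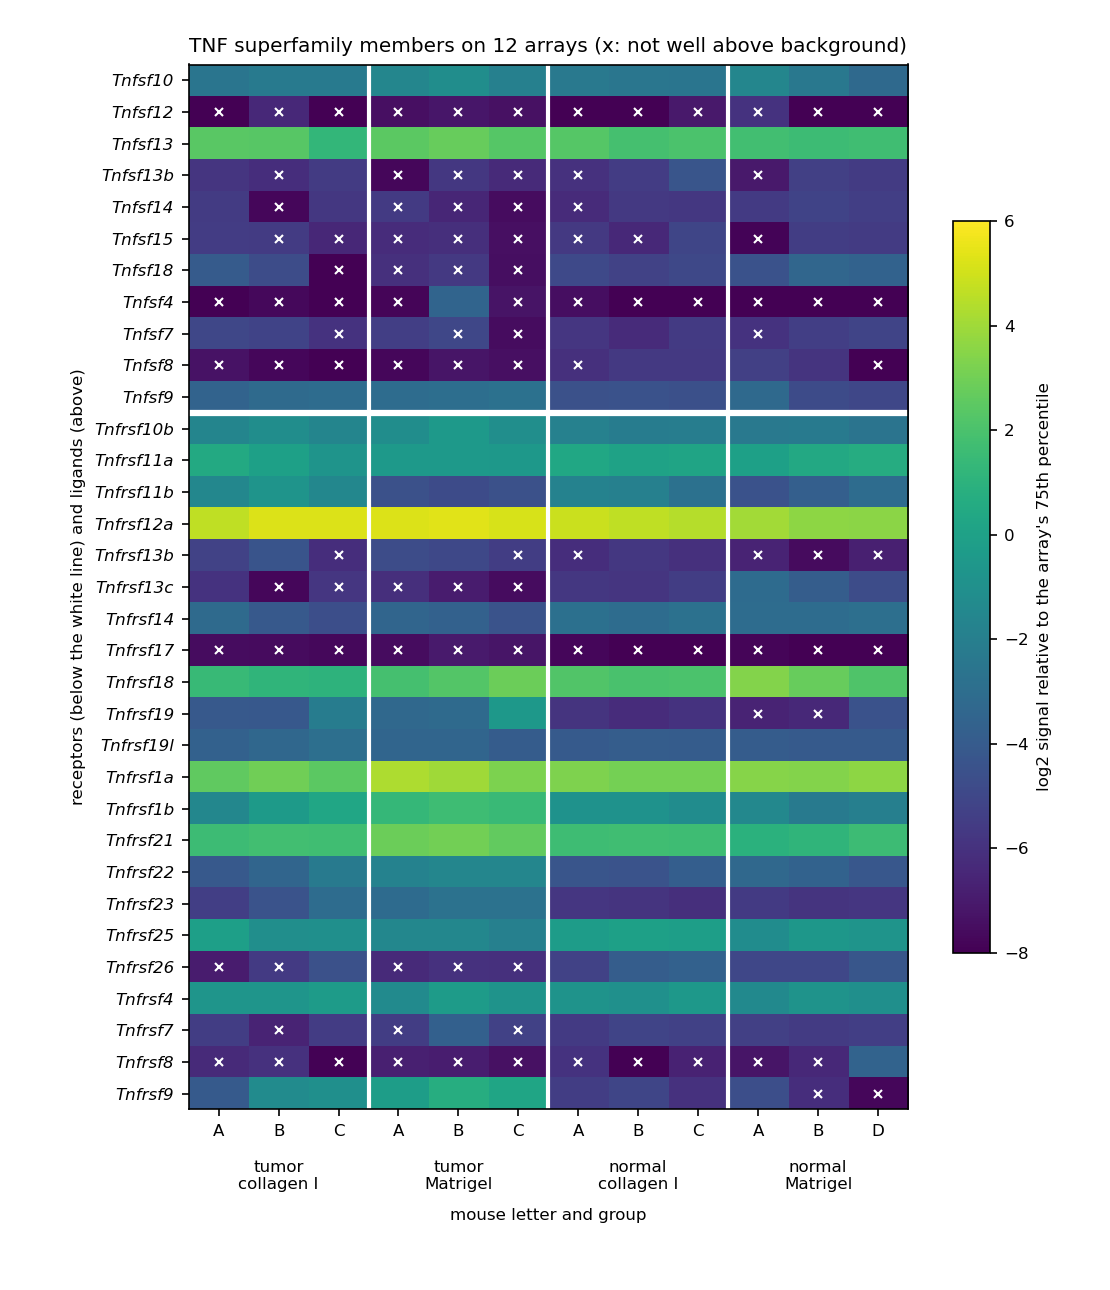
Level of each of the 33 members (rows, ligands above receptors) on each of the 12 arrays (columns: tumor collagen I, tumor Matrigel, normal collagen I, normal Matrigel), as log2 of the signal relative to the array's 75th percentile, with a cross where the probe was not well above background. Tnfrsf9, Tnfrsf1b, Tnfrsf22 and Tnfrsf23 are high on the 3 tumor Matrigel arrays, and Tnfrsf17 and Tnfsf12 carry a cross on all 12.

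Between tumor Matrigel and normal Matrigel, limma called 14 of the 25 members, 10 higher and 4 lower, where 51.8% of 18274 genes were called, 25.9% higher and 25.8% lower. Between tumor collagen I and tumor Matrigel it called 8 of 25, 2 higher and 6 lower, where 27.9% of genes were called, 15.7% higher and 12.2% lower. These comparisons share the 3 tumor Matrigel arrays, so a level that is high on those arrays enters both. The median difference of the 25 members was 0.40 on the log2 scale between tumor Matrigel and normal Matrigel (all genes 0.09) and -0.32 between tumor collagen I and tumor Matrigel (all genes -0.05). After normexp background correction, another treatment of dim spots, 15 members were higher and 0 lower in tumor Matrigel than in normal Matrigel, and 0 were higher and 4 lower in tumor collagen I than in tumor Matrigel. With it 50.2% of all genes were called between the tissues in Matrigel (7088 higher and 2088 lower). Between the gels in tumor organoids it called 6.86% of all genes (484 higher and 770 lower). The higher share of all called genes under normexp was 77.2% against 50.1% between the tissues in Matrigel and 38.6% against 56.3% between the gels in tumor organoids.

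Away from tumor Matrigel fewer members were called. Between tumor collagen I and normal collagen I, 1 of 25 members was higher, where 8.66% of genes were called and 3.66% were higher, and the medians were 0.16 for members and 0.05 for all genes. Between normal collagen I and normal Matrigel limma called 0 of 25 members, where 0.0438% of genes were called (0.0383% higher and 0.00547% lower). Its unadjusted p was under 0.05 for 6 of 25 members and for 1658 of 18274 genes. The 13 other settings and 12 fits without 1 array also called 0 members in this comparison. The gel difference in tumor organoids minus that in normal organoids was called for 2 of 25 members, both lower, where 2.67% of genes were called and 1.33% were lower.

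**Figure D2:**
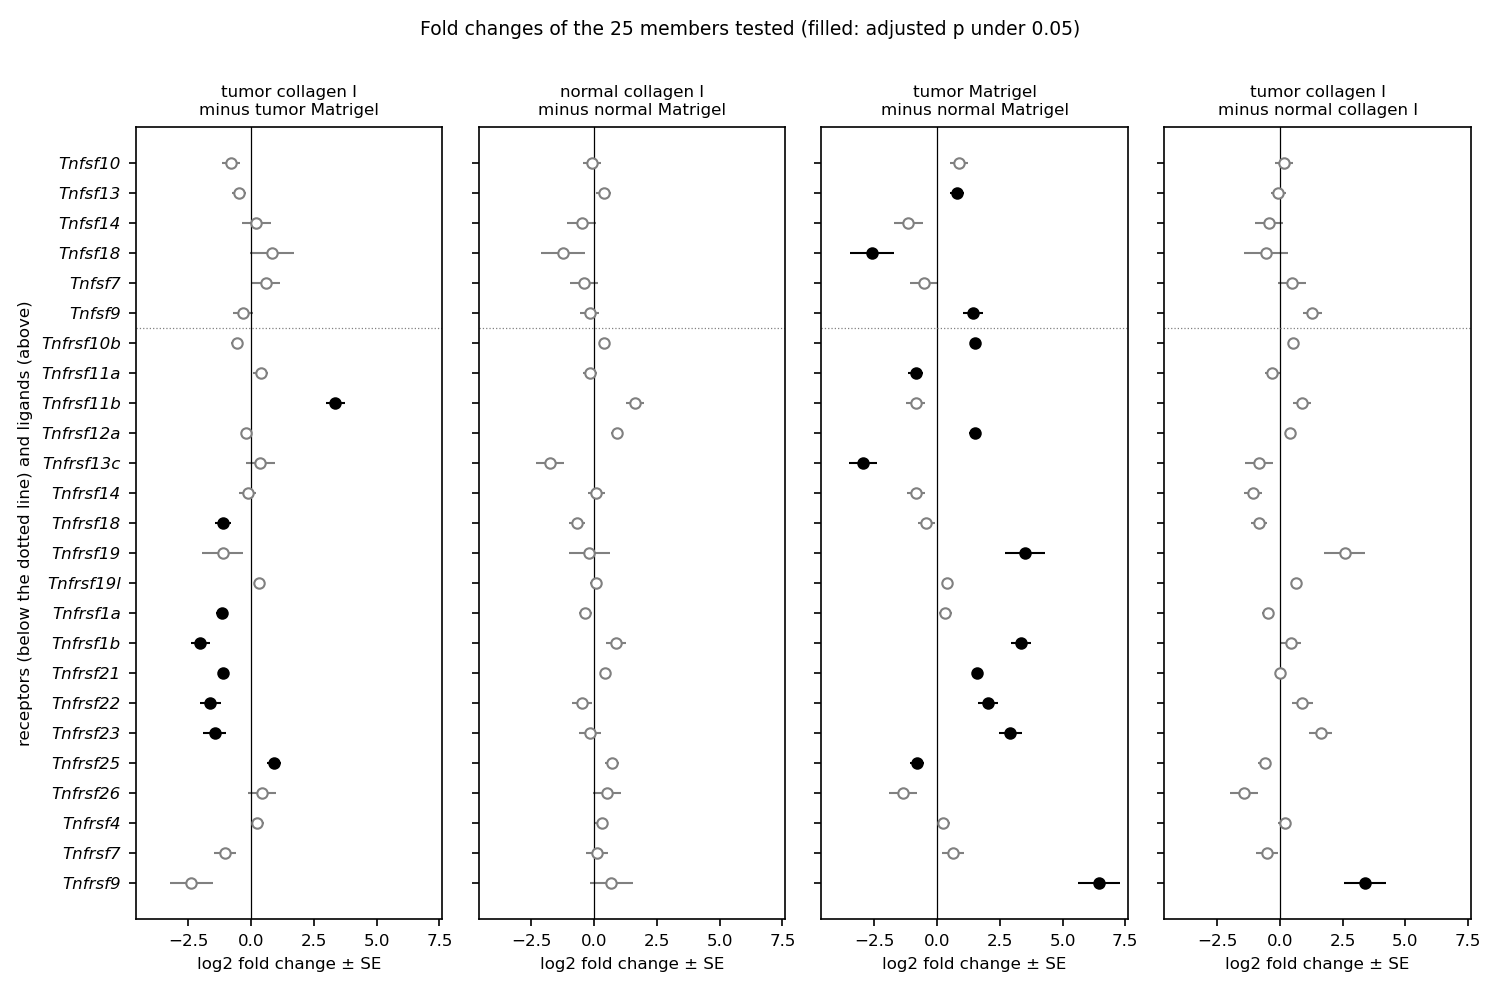
Log2 difference (horizontal axis, points with SE bars, n = 3 arrays a group) of the 25 tested members in 4 comparisons, filled where the adjusted p was under 0.05. Tnfrsf9 lies at 6.45 between tumor Matrigel and normal Matrigel, where 2 of 3 normal arrays were not well above background (3.68 under normexp), and Tnfrsf11b lies at 3.35 between tumor collagen I and tumor Matrigel.

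Both receptors for TNF itself were called lower in tumor collagen I than in tumor Matrigel. Between tumor Matrigel and normal Matrigel Tnfrsf1b was called and Tnfrsf1a was not. The receptors were not tested against each other. Tnfrsf1b (TNF receptor 2, which lacks a death domain and signals through TRAF2) measured 34.6, 76.1 and 123% in tumor collagen I A, B and C and 252, 309 and 281% in tumor Matrigel A, B and C. In normal organoids it measured 54.6, 54.6 and 43.1% in collagen I A, B and C and 36.9, 21.6 and 25.9% in Matrigel A, B and D. The 3 tumor Matrigel arrays lay above the other 9 arrays without overlap.

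Tnfrsf1b was 10.2-fold higher in tumor Matrigel than in normal Matrigel (log2 3.35 ± 0.38 SE, adjusted p = 0.000135, n = 3 each) and 4.07-fold lower in tumor collagen I than in tumor Matrigel (log2 -2.02 ± 0.38, adjusted p = 0.0052). Both calls were kept under every alternative run, between 2.27 and 3.92 and between -2.45 and -1.43. In tumor collagen I against normal collagen I the difference was 0.44 (adjusted p = 0.542). A second probe for the gene, well above background on all 12 arrays, gave smaller differences: 1.20 between tumor Matrigel and normal Matrigel (adjusted p = 0.0244) and -0.83 between tumor collagen I and tumor Matrigel (adjusted p = 0.134). The main probe lies at chr4:144626830-144626889 on the minus strand of mm7, and no mm7 annotation of exons was used here.

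The macrophage marker Cd68 measured 24.8, 38.2 and 70.1% in tumor collagen I, 241, 413 and 288% in tumor Matrigel, 31.0, 36.8 and 48.9% in normal collagen I and 15.8, 10.8 and 29.3% in normal Matrigel. It was thus high on the same 3 arrays as Tnfrsf1b, while Ptprc was not well above background there. Cd68 rose by 4.16 ± 0.43 on the log2 scale in tumor Matrigel against normal Matrigel (adjusted p = 7.8e-05) and fell in tumor collagen I against tumor Matrigel (-2.92 ± 0.43, adjusted p = 0.00211). Of 9 myeloid genes tested in tumor Matrigel against normal Matrigel, Cd68 was the 1 called higher, Lyz2 was called lower (-2.37 ± 0.82, adjusted p = 0.032), and the median was -1.05. In tumor collagen I against tumor Matrigel 0 were higher and 1 lower, Cd68, with a median of 0.20. Of all genes 51.8% were called between the tissues in Matrigel (median 0.09) and 27.9% between the gels in tumor organoids (median -0.05). The part of myeloid cells in the Tnfrsf1b result was not tested.

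Tnfrsf1a (TNF receptor 1, which carries a death domain and binds TRADD) measured 591, 794 and 558% in tumor collagen I and 1921, 1589 and 958% in tumor Matrigel. Normal organoids had 996, 853 and 827% in collagen I and 1117, 1061 and 1224% in Matrigel. It was 2.24-fold lower in tumor collagen I than in tumor Matrigel (log2 -1.16 ± 0.25, adjusted p = 0.00842), and the 2 groups did not overlap. That call was lost under normexp background correction (-0.89, adjusted p = 0.0673) and with slide as a fixed block (-0.91, adjusted p = 0.0721). Tumor Matrigel against normal Matrigel gave 0.34 (adjusted p = 0.279).

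Their ligands carry other names on the array. Tnf measured 131, 143 and 345% in tumor collagen I, 127, 196 and 179% in tumor Matrigel, 46.0, 40.9 and 36.4% in normal collagen I and 34.5, 36.1 and 43.6% in normal Matrigel. Every tumor array lay above every normal array, with differences of 2.18 ± 0.33 in collagen I (adjusted p = 0.0022) and 2.12 ± 0.33 in Matrigel (adjusted p = 0.000669). Lta (lymphotoxin alpha) measured 9.24, 6.40 and 12.7% in tumor collagen I, 23.6, 30.1 and 20.4% in tumor Matrigel, 6.17, 6.95 and 7.07% in normal collagen I and 5.78, 5.13 and 5.61% in normal Matrigel. Lta rose in tumor Matrigel against normal Matrigel (2.15 ± 0.24, adjusted p = 0.000124) and was lower in tumor collagen I than in tumor Matrigel (-1.42 ± 0.24, adjusted p = 0.00345).

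Tnfrsf9 (4-1BB, known as a costimulatory receptor of T cells) measured 6.05, 41.7 and 48.2% in tumor collagen I and 87.9, 168 and 116% in tumor Matrigel. In normal collagen I it measured 2.32, 2.92 and 1.57%, and in normal Matrigel 4.08, 1.37 and 0.46%, of which only the array of mouse A was well above background. Tumor arrays lay above normal arrays in both gels without overlap, and tumor collagen I A was the lowest tumor array. The difference was 87.4-fold between tumor Matrigel and normal Matrigel (log2 6.45 ± 0.85, adjusted p = 0.000273), a size that rests on dim normal spots and was 3.68 on the log2 scale after normexp background correction. Of the 2 probes for Tnfrsf9, 1 passed the filter for testing, so these values rest on a single probe.

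Between tumor collagen I and normal collagen I, Tnfrsf9 was 10.5-fold higher (log2 3.39 ± 0.85, adjusted p = 0.0331), the member called there. The call was lost without the filter on dim probes (adjusted p = 0.0523), with slide as a fixed block (adjusted p = 0.118), and without tumor collagen I B or C or any 1 of the normal collagen I arrays, with differences from 2.19 to 4.35 over all alternatives. Between tumor collagen I and tumor Matrigel the difference of -2.38 ± 0.85 had an adjusted p of 0.0591. With the mouse as a replicate block the same difference had an adjusted p of 0.0369.

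Its ligand Tnfsf9 (4-1BB ligand) measured 8.68, 11.1 and 12.2% in tumor collagen I, 12.2, 12.8 and 14.6% in tumor Matrigel, 4.34, 4.50 and 4.14% in normal collagen I and 10.8, 3.53 and 3.05% in normal Matrigel. Normal Matrigel A stood above the other 5 normal arrays. In tumor Matrigel Tnfsf9 was 2.69-fold higher than in normal Matrigel (log2 1.43 ± 0.39, adjusted p = 0.0109), and the call was kept under every alternative run. The T cell marker Cd3e measured 5.68, 16.4 and 6.35% in tumor collagen I, 13.1, 12.5 and 9.76% in tumor Matrigel, 5.70, 3.99 and 8.57% in normal collagen I and 5.94, 9.18 and 5.48% in normal Matrigel, and was not called between the tissues in Matrigel (0.81, adjusted p = 0.122). Of 7 T and NK cell genes 3 were tested there: Cd4 was higher (0.69, adjusted p = 0.0438), and Nkg7, well above background on no tumor Matrigel array, was called lower with a sign that turned under normexp (1.29). Cd2, Cd3d, Cd3g and Cd8a were well above background on no tumor Matrigel array. The part of these cells in the Tnfrsf9 and Tnfsf9 results was not tested.

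**Figure D3:**
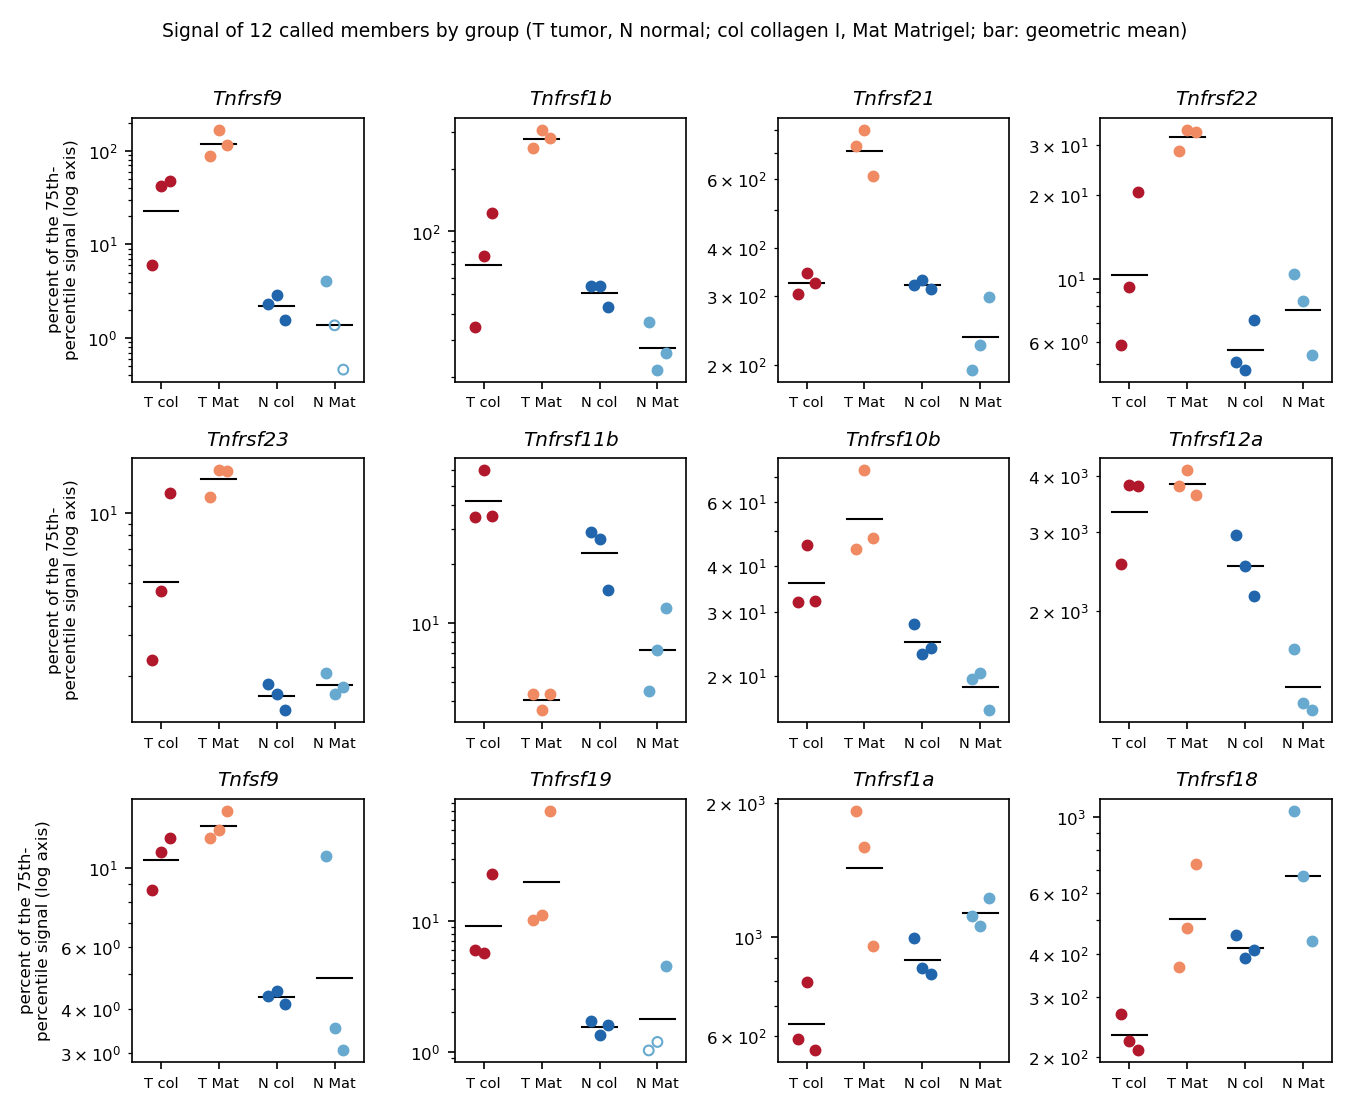
Level of 12 members on each array, as percent of the array's 75th-percentile signal (vertical log axis), by group (tumor collagen I, tumor Matrigel, normal collagen I, normal Matrigel; 3 arrays each), with open points where the probe was not well above background and bars at the geometric mean. Tnfrsf9, Tnfrsf1b and Tnfrsf21 stand above the other groups in tumor Matrigel, and Tnfrsf11b stands lowest there.

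Tnfrsf21 (death receptor 6, a death-domain receptor known from neurons and T cells) measured 304, 345 and 324% in tumor collagen I and 727, 801 and 611% in tumor Matrigel. Normal organoids had 320.0, 330.3 and 313% in collagen I and 195, 226 and 299.6% in Matrigel. The tumor Matrigel arrays lay above the other 9, and the collagen I arrays of both tissues lay between 304 and 345%. Tnfrsf21 was 3.00-fold higher in tumor Matrigel than in normal Matrigel (log2 1.59 ± 0.19, adjusted p = 0.000153) and 2.19-fold lower in tumor collagen I than in tumor Matrigel (log2 -1.13 ± 0.19, adjusted p = 0.00306). Both calls were kept under every alternative run.

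Its other probes gave smaller differences. Between tumor Matrigel and normal Matrigel they gave 1.26 (adjusted p = 0.00104) and 0.66 (adjusted p = 0.0717). Between tumor collagen I and tumor Matrigel they gave -0.92 (adjusted p = 0.0117) and -0.03 (adjusted p = 0.955), so 1 of the 3 probes showed no difference that passed the test. The main probe lies at chr17:41207206-41207263 on the plus strand of mm7.

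The difference between the gel effects of the 2 tissues was itself tested. For Tnfrsf1b the gel difference was -2.02 in tumor organoids and 0.88 ± 0.38 in normal organoids (adjusted p = 0.526), and the difference between these was -2.91 ± 0.54 (adjusted p = 0.0333). For Tnfrsf21 it was -1.13 in tumor organoids and 0.44 ± 0.19 in normal organoids (adjusted p = 0.511), and the difference between these was -1.57 ± 0.26 (adjusted p = 0.0249). With the mouse as a replicate block the adjusted p was 0.127 for Tnfrsf1b (-2.98) and 0.116 for Tnfrsf21 (-1.76), and 0 of 18274 genes passed. Both calls were also lost under normexp, without the filter on dim probes, with the mean of a gene's probes, without any 1 normal collagen I array and without normal Matrigel B, and for Tnfrsf1b with the authors' values (-2.80, adjusted p = 0.0551) or without tumor Matrigel B or normal Matrigel D and for Tnfrsf21 without tumor collagen I A or with slide as a fixed block (-1.40, adjusted p = 0.0573). The next members by adjusted p were Tnfrsf12a (-1.11 ± 0.30, 0.0674), Tnfrsf11b (1.72 ± 0.53, 0.0873) and Tnfrsf10b (-0.99 ± 0.32, 0.0971).

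Upstream sequences are shown for Tnfrsf9, Tnfrsf1b and Tnfrsf21, which were high in tumor Matrigel. NF-kB and AP-1 are activated downstream of the family, and their motifs can be looked for in these sequences. Windows are the 250 bases before a RefSeq transcript start (GRCm38.p6), 5′ to 3′ on the gene's strand, with motif matches in capitals. Tnfrsf9 has 2 starts in the table, at chr4:150919905-150920154 and chr4:150927749-150927998 on the plus strand. The windows of Tnfrsf1b (chr4:145246871-145247120, minus strand) and Tnfrsf21 (chr17:43016305-43016554, plus strand) follow.
Tnfrsf9, first start: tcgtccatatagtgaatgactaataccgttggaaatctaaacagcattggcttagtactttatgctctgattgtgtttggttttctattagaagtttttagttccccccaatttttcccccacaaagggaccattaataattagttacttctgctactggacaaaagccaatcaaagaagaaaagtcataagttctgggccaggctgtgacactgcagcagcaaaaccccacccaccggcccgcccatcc
Tnfrsf9, second start: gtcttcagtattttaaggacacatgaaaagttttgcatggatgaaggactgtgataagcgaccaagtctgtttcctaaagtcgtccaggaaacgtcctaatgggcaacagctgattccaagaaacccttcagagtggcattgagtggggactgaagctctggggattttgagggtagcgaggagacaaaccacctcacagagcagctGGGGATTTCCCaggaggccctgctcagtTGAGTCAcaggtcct
Tnfrsf1b: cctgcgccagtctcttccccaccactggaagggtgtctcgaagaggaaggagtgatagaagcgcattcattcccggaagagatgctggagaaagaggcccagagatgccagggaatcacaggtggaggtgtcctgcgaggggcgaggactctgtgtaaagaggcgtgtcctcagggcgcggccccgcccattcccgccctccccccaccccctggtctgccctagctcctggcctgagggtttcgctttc
Tnfrsf21: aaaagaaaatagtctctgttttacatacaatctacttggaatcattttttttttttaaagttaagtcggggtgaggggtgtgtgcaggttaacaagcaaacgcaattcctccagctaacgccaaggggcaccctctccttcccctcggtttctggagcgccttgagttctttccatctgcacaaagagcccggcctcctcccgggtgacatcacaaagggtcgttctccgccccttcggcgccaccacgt
The second Tnfrsf9 window holds an NF-kB match that begins at position -43 from the start and an AP-1 match (TGANTCA, both strands searched) at -15, which do not overlap, and the other 3 windows hold neither. The window of Tnfrsf23, also high in tumor Matrigel and not shown, holds neither as well. Of 32851 windows in the table, 7.25% hold the NF-kB motif and 6.75% the AP-1 motif. Among the 29 windows of the 25 member genes that have one, 3 hold the NF-kB motif (Tnfrsf25, Tnfrsf8 and Tnfrsf9) and 5 the AP-1 motif (Tnfrsf8, Tnfrsf9, Tnfsf13, Tnfsf13b and Tnfsf14). A match is a stretch of letters and not a measured binding site.

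The receptors of TRAIL (Tnfsf10, a ligand known for inducing cell death in tumor cells) were next. Tnfrsf10b, its death receptor in the mouse, measured 32.0, 45.5 and 32.2% in tumor collagen I, 44.7, 73.1 and 47.8% in tumor Matrigel, 27.8, 22.9 and 23.9% in normal collagen I and 19.7, 20.4 and 16.2% in normal Matrigel. Every tumor array lay above every normal array. It was 2.88-fold higher in tumor Matrigel than in normal Matrigel (log2 1.53 ± 0.23, adjusted p = 0.000504), and its other 2 probes gave 1.60 (adjusted p = 0.000346) and 1.30 (adjusted p = 0.000275). In tumor collagen I against normal collagen I the difference of 0.54 had an adjusted p of 0.183.

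Tnfrsf22 and Tnfrsf23 are decoy receptors of TRAIL described in the mouse. Tnfrsf22 measured 5.85, 9.39 and 20.4% in tumor collagen I, 28.7, 34.0 and 33.5% in tumor Matrigel, 5.08, 4.77 and 7.18% in normal collagen I and 10.5, 8.36 and 5.39% in normal Matrigel. Tnfrsf23 measured 2.34, 4.62 and 12.1% in tumor collagen I, 11.7, 15.2 and 15.2% in tumor Matrigel, 1.84, 1.68 and 1.43% in normal collagen I and 2.06, 1.67 and 1.80% in normal Matrigel. Tumor Matrigel arrays exceeded normal arrays for both genes, and tumor collagen I C stood above tumor collagen I A and B. In tumor Matrigel against normal Matrigel Tnfrsf22 was 4.11-fold higher (log2 2.04 ± 0.40, adjusted p = 0.00213) and Tnfrsf23 7.58-fold higher (log2 2.92 ± 0.45, adjusted p = 0.000609), calls kept under every alternative run.

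Both decoys were lower in tumor collagen I than in tumor Matrigel, Tnfrsf22 3.08-fold (log2 -1.62 ± 0.40, adjusted p = 0.0152) and Tnfrsf23 2.74-fold (log2 -1.46 ± 0.45, adjusted p = 0.0358). The Tnfrsf23 groups overlapped, and its call was lost under normexp (adjusted p = 0.0566), without the filter on dim probes (0.0629), with slide as a fixed block (0.1), and without tumor collagen I A or B, any 1 tumor Matrigel array or any 1 normal collagen I array, with differences between -2.08 and -0.90. The Tnfrsf22 call was lost with slide as a fixed block (adjusted p = 0.0651) and without tumor collagen I A or tumor Matrigel B. Between tumor collagen I and normal collagen I Tnfrsf23 differed by 1.63 ± 0.45 (adjusted p = 0.0504).

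These decoys and Tnfrsf26, a close relative, are neighbours: the probes of Tnfrsf22 and Tnfrsf23 lie 31.0 kb apart on chr7 of mm7 (chr7:140064769-140064828 and chr7:140095804-140095863, minus strand), and that of Tnfrsf26 lies 29.4 kb from Tnfrsf22. The longest run of bases that the 60-base probes share is 6 for Tnfrsf22 and Tnfrsf23, 5 for Tnfrsf22 and Tnfrsf26 and 6 for Tnfrsf23 and Tnfrsf26. Tnfrsf26 itself was not well above background on any tumor Matrigel array. It measured 0.812, 2.03 and 4.40% in tumor collagen I, 1.25, 1.53 and 1.51% in tumor Matrigel, 2.69, 6.88 and 7.85% in normal collagen I and 3.03, 3.09 and 5.25% in normal Matrigel. No comparison called it, with -1.36 ± 0.56 between tumor Matrigel and normal Matrigel (adjusted p = 0.0634).

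The ligand Tnfsf10 measured 17.3, 21.3 and 21.4% in tumor collagen I, 33.6, 46.0 and 26.6% in tumor Matrigel, 19.4, 17.3 and 16.8% in normal collagen I and 33.3, 19.0 and 10.7% in normal Matrigel. Its differences did not pass, at -0.79 ± 0.35 between tumor collagen I and tumor Matrigel (adjusted p = 0.116) and 0.87 ± 0.35 between tumor Matrigel and normal Matrigel (adjusted p = 0.0598).

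Tnfrsf11b (osteoprotegerin, a secreted decoy that also binds TRAIL) ran the other way across the gels. It measured 34.5, 59.9 and 35.0% in tumor collagen I, 4.33, 3.61 and 4.35% in tumor Matrigel, 29.1, 26.7 and 14.8% in normal collagen I and 4.50, 7.28 and 11.9% in normal Matrigel. Collagen I arrays lay above Matrigel arrays in both tissues without overlap. It was 10.2-fold higher in tumor collagen I than in tumor Matrigel (log2 3.35 ± 0.37, adjusted p = 0.000986). Normexp background correction gave 0.93 with an adjusted p of 0.113, and the call was kept in the other 12 settings and in the 12 fits without 1 array.

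In normal organoids Tnfrsf11b was 3.09 times as high in collagen I as in Matrigel, which did not pass (log2 1.63 ± 0.37, adjusted p = 0.15). Within mice the collagen I minus Matrigel difference was 2.99, 4.05 and 3.01 in tumor mice A, B and C and 2.69 and 1.88 in normal mice A and B. The gel effects of the tissues differed by 1.72 ± 0.53 (adjusted p = 0.0873). Its probe lies at chr15:54311325-54311384 on the minus strand of mm7.

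Tnfrsf12a (Fn14, the receptor of TWEAK, known to be induced by growth factors) measured 2543, 3820 and 3793% in tumor collagen I, 3797, 4116 and 3623% in tumor Matrigel, 2951, 2521 and 2164% in normal collagen I and 1651, 1247 and 1206% in normal Matrigel. Normal Matrigel was the lowest group and overlapped with none of the others. The receptor was 2.84-fold higher in tumor Matrigel than in normal Matrigel (log2 1.50 ± 0.21, adjusted p = 0.000387), and the call was kept under every alternative run, down to 0.86. Its ligand Tnfsf12 (TWEAK) was not well above background on any of the 12 arrays. In normal organoids the difference between collagen I and Matrigel was 0.90 ± 0.21 (adjusted p = 0.161).

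Tnfrsf19 (TROY, a receptor known from hair follicles and the nervous system) measured 5.96, 5.67 and 22.9% in tumor collagen I, 10.2, 11.2 and 70.2% in tumor Matrigel, 1.71, 1.34 and 1.61% in normal collagen I and 1.02, 1.19 and 4.54% in normal Matrigel. Mouse C gave the highest tumor value in both gels, and only mouse D of normal Matrigel was well above background. The receptor was 11.3-fold higher in tumor Matrigel than in normal Matrigel (log2 3.50 ± 0.81, adjusted p = 0.00486), a size that rests on dim normal spots and was 2.29 on the log2 scale after normexp. The call was lost with slide as a fixed block (2.94, adjusted p = 0.153). Of the 2 probes for Tnfrsf19, 1 passed the filter for testing. With the mouse as a replicate block, the difference of -1.12 between tumor collagen I and tumor Matrigel passed (adjusted p = 0.0281), against 0.326 without the block.

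Tnfrsf25 (death receptor 3) measured 92.8, 47.4 and 48.5% in tumor collagen I, 34.8, 35.4 and 26.6% in tumor Matrigel, 84.5, 98.6 and 90.4% in normal collagen I and 43.4, 66.3 and 59.5% in normal Matrigel. Within each tissue all collagen I arrays lay above all Matrigel arrays. It was 1.87-fold higher in tumor collagen I than in tumor Matrigel (log2 0.90 ± 0.27, adjusted p = 0.0326) and 1.74-fold lower in tumor Matrigel than in normal Matrigel (log2 -0.79 ± 0.27, adjusted p = 0.031). Both calls were lost under quantile normalization, normexp, the authors' deposited values and slide as a fixed block. The gel call was also lost without the filter on dim probes, tumor collagen I A or any 1 tumor Matrigel array (0.35 to 1.25 over all alternatives), and the tissue call without tumor Matrigel B or C or normal Matrigel B or D (-1.11 to -0.21). Of the 2 probes for Tnfrsf25, 1 passed the filter for testing. Its ligand Tnfsf15 was well above background on 4 of 12 arrays and was not tested.

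Among further receptors known from lymphocytes, Tnfrsf18 (GITR) measured 267, 222 and 209% in tumor collagen I, 367, 476 and 731% in tumor Matrigel, 453, 389 and 409% in normal collagen I and 1043, 672 and 434% in normal Matrigel. It was 2.18-fold lower in tumor collagen I than in tumor Matrigel (log2 -1.12 ± 0.32, adjusted p = 0.026), and these groups did not overlap. The call was lost in 4 of 13 settings, with adjusted p between 0.0501 (quantile) and 0.0901 (normexp), and without any 1 tumor collagen I array or tumor Matrigel B or C. The probe of Tnfrsf4 (OX40) lies 12.2 kb from that of Tnfrsf18 on chr4, and Tnfrsf4 was not called, with 62.3, 60.8 and 81.0% in tumor collagen I, 40.0, 79.6 and 58.0% in tumor Matrigel, 58.0, 51.7 and 68.2% in normal collagen I and 38.9, 57.1 and 49.4% in normal Matrigel.

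Tnfsf18, the ligand of GITR, was not well above background on any tumor Matrigel array. It measured 6.45, 3.70 and 0.374% in tumor collagen I, 1.51, 1.92 and 0.551% in tumor Matrigel, 3.34, 2.61 and 3.23% in normal collagen I and 4.57, 9.56 and 8.15% in normal Matrigel. In tumor Matrigel it was at least 2.70-fold lower than in normal Matrigel (fitted log2 -2.60 ± 0.87, adjusted p = 0.0283). "At least" compares the mean of the bright arrays with a ceiling for the dim ones, which on each array is its lowest well-measured signal or the probe's own signal, whichever is higher. The sign turned under normexp (0.72, adjusted p = 0.168), and the call was also lost under quantile normalization, the authors' values, slide as a fixed block, and without tumor Matrigel C or normal Matrigel B or D.

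Tnfrsf14 (HVEM) measured 11.1, 5.81 and 3.99% in tumor collagen I, 9.16, 8.07 and 4.66% in tumor Matrigel, 13.8, 12.1 and 14.6% in normal collagen I and 12.2, 11.9 and 13.7% in normal Matrigel. Tumor arrays lay below normal arrays in both gels, with -1.08 ± 0.35 in collagen I (adjusted p = 0.0868) and -0.84 ± 0.35 in Matrigel (adjusted p = 0.0636), neither of which passed. Its ligand Tnfsf14 (LIGHT) lay between 0.471 and 2.76% on the 12 arrays and was not called.

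Tnfrsf7 and its ligand Tnfsf7 lay between 1.03 and 7.61% and between 0.539 and 3.11% on the 12 arrays, and neither was called. Tnfrsf8 (CD30) reached 8.55% on the 1 array where it was well above background, normal Matrigel D, and Tnfsf4 (OX40 ligand) 8.86% on tumor Matrigel B.

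Members that act on B cells were low apart from a ligand. Tnfsf13 (APRIL) measured 535, 513 and 239% in tumor collagen I, 548, 667 and 499% in tumor Matrigel, 501, 368 and 404% in normal collagen I and 336, 305 and 330% in normal Matrigel. It was 1.75-fold higher in tumor Matrigel than in normal Matrigel (log2 0.81 ± 0.29, adjusted p = 0.0352), but its size was between 0.45 and 0.90 over all alternatives, and the call was lost under quantile normalization, normexp, the authors' values, slide as a fixed block, and without tumor Matrigel A or B or any 1 normal Matrigel array.

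Tnfrsf13c (the BAFF receptor) measured 1.64, 0.47 and 1.82% in tumor collagen I, 1.44, 0.817 and 0.548% in tumor Matrigel, 1.92, 1.77 and 2.30% in normal collagen I and 11.8, 6.79 and 3.76% in normal Matrigel. It was not well above background on any tumor Matrigel array and was at least 2.55-fold lower there than in normal Matrigel (fitted log2 -2.96 ± 0.56, adjusted p = 0.0017). Under normexp the sign turned (0.75, adjusted p = 0.159). The summed level of 5 B cell markers was 8.71 to 13.0% in tumor Matrigel and 10.2 to 51.5% in normal Matrigel, and Cd79b, Ms4a1 and Pax5 were well above background on no tumor Matrigel array. Their part in this result was not tested.

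Of the other receptors, Tnfrsf11a (an NF-kB activating receptor known in osteoclasts and in mammary alveolar development) measured 139.6, 97.5 and 58.9% in tumor collagen I, 70.6, 73.7 and 69.7% in tumor Matrigel, 128, 105 and 112% in normal collagen I and 97.9, 138 and 158% in normal Matrigel. It was 1.80-fold lower in tumor Matrigel than in normal Matrigel (log2 -0.85 ± 0.29, adjusted p = 0.0295). A second probe gave -0.72 (adjusted p = 0.0655). The call was lost under normexp (adjusted p = 0.0516), and without any 1 tumor Matrigel array or normal Matrigel B or D. Tnfrsf19l lay between 6.12 and 13.5% and was not called.

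Slides that held arrays of 2 groups gave differences of 1 array against another. On slide 4, tumor Matrigel minus normal Matrigel was 3.58 for Tnfrsf1b, 3.08 for Tnfrsf23, 2.66 for Tnfrsf22, 2.18 for Tnfrsf10b, 2.07 for Tnfsf9, 1.77 for Tnfrsf12a, 1.42 for Tnfrsf21, 1.30 for Tnfrsf19 and 1.01 for Tnfsf13. It was -1.10 for Tnfrsf11a and -0.75 for Tnfrsf25. Tnfrsf9, Tnfrsf13c and Tnfsf18 were well above background on only 1 array of that pair. On slide 8, tumor collagen I minus tumor Matrigel was -3.02 for Tnfrsf1b, -2.70 for Tnfrsf23, -2.52 for Tnfrsf22, -1.45 for Tnfrsf18, -1.01 for Tnfrsf21, -0.70 for Tnfrsf1a, 1.80 for Tnfrsf25 and 2.99 for Tnfrsf11b. These arrays are part of the fit that made the calls, so the values describe its data and are no separate check. On slide 6, tumor collagen I minus normal collagen I was 4.05 for Tnfrsf9.

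Within tumor mice A, B and C, collagen I minus Matrigel was -2.86, -2.02 and -1.19 for Tnfrsf1b and -1.26, -1.21 and -0.91 for Tnfrsf21. It was -3.86, -2.01 and -1.27 for Tnfrsf9, -2.29, -1.86 and -0.72 for Tnfrsf22 and -2.33, -1.72 and -0.32 for Tnfrsf23. Every one of these 5 receptors was lower in collagen I in all 3 mice, with the smallest difference in mouse C. The same arrays made the fitted differences for which these receptors were named, so the shared sign is no separate check. How many of all genes share the sign or the order of mice was not counted. Tnfrsf1a gave -1.70, -1.0 and -0.78, Tnfrsf18 gave -0.46, -1.10 and -1.81, and Tnfrsf25 gave 1.41, 0.42 and 0.86.

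Other genes of the pathway were read from 4 lists. Of 10 tested members of the superfamily with other names, 1 was higher and 1 lower in tumor collagen I than in tumor Matrigel, and 5 were higher and 2 lower in tumor Matrigel than in normal Matrigel (medians 0.33 and 0.61, against -0.05 and 0.09 over all genes). Of all genes 27.9% were called in the first comparison and 51.8% in the second. Those higher in tumor Matrigel were Lta, Tnf, Eda2r (1.26 ± 0.37, adjusted p = 0.0149), Eda (1.16 ± 0.28, adjusted p = 0.00624) and Ltbr, the lymphotoxin beta receptor (0.72 ± 0.28, adjusted p = 0.0499). The Ltbr call was lost in all 3 other scalings, at 0.19 under quantile normalization, 0.47 under normexp and 0.15 with the authors' values (adjusted p from 0.159 to 0.615). Edar, the ectodysplasin receptor, was lower (-1.91 ± 0.50, adjusted p = 0.00888), as was Cd40 (-1.43 ± 0.37, adjusted p = 0.00835), whose sign turned under normexp (0.64) and which was lost under quantile normalization (adjusted p = 0.0634). The Edar call was lost under normexp (-0.14, adjusted p = 0.785). Of these 7 calls 5, 4 and 6 remained under quantile normalization, normexp and the authors' values. Fas was higher in tumor collagen I than in tumor Matrigel (0.85 ± 0.19, adjusted p = 0.0104).

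Of 20 tested TRAF and death-domain adaptors, 8 were higher and 2 lower in tumor Matrigel than in normal Matrigel, and 2 were higher and 1 lower in tumor collagen I than in tumor Matrigel (medians -0.11 and -0.19). The 10 of 20 called between the tissues in Matrigel lie near the 51.8% of all genes (median 0.09), and the 3 of 20 between the gels below the 27.9% of all genes (median -0.05). Traf4 (1.16 ± 0.22, adjusted p = 0.00194), Tradd (0.88 ± 0.23, adjusted p = 0.00839) and Traf2 (0.85 ± 0.21, adjusted p = 0.00712) were higher in tumor Matrigel than in normal Matrigel. The Tradd call was lost under quantile normalization (0.37) and with the authors' values (0.32), and the Traf2 call under normexp (0.53) and with the authors' values (0.40). Birc2, a ubiquitin ligase of TNF receptor complexes, was lower there (-1.10 ± 0.18, adjusted p = 0.000823), as was Ripk3 (-0.85 ± 0.27, adjusted p = 0.0227). Casp8, the apical caspase of death receptors, was higher in tumor collagen I than in tumor Matrigel (1.04 ± 0.29, adjusted p = 0.0235), with Birc2 (0.90 ± 0.18, adjusted p = 0.00653), and Traf5 was lower (-0.50 ± 0.16, adjusted p = 0.0388). In the collagen I gels of the tissues, tumor against normal, Birc3 was higher (0.89 ± 0.18, adjusted p = 0.0121) and Traf5 lower (-0.66 ± 0.16, adjusted p = 0.0277), where 8.66% of all genes were called. Under normexp the gel call of Casp8 (adjusted p = 0.0518) and both calls of Traf5 (adjusted p = 0.0939 and 0.136) were lost. Of the 10 called between the tissues in Matrigel, 7, 5 and 5 remained under quantile normalization, normexp and the authors' values.

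Of 25 tested NF-kB subunits and regulators, 11 were higher and 5 lower in tumor Matrigel than in normal Matrigel (median 0.32), and 5 were higher and 0 lower in tumor collagen I than in normal collagen I (median 0.15). Of all genes 51.8% were called in the first comparison (25.9% higher, median 0.09) and 8.66% in the second (3.66% higher, median 0.05). Relb was higher in both (2.11 ± 0.17, adjusted p = 1.89e-05, and 0.78 ± 0.17, adjusted p = 0.0152). Nfkb2, its partner in the non-canonical pathway (1.89 ± 0.20, adjusted p = 8.69e-05), Bcl3 (1.87 ± 0.20, adjusted p = 9.4e-05) and Nfkbia, the inhibitor that NF-kB induces (1.78 ± 0.27, adjusted p = 0.00052), were higher in tumor Matrigel than in normal Matrigel. Tab3 (-1.31 ± 0.23, adjusted p = 0.00106) and Cyld, a deubiquitinase that restrains NF-kB (-1.23 ± 0.21, adjusted p = 0.000979), were among those lower there, and 14, 11 and 13 of these 16 calls remained under quantile normalization, normexp and the authors' values. Tnfaip3 (A20, an NF-kB-induced inhibitor) was higher in tumor collagen I than in normal collagen I (2.16 ± 0.42, adjusted p = 0.00939), as was the kinase Ikbke (1.76 ± 0.37, adjusted p = 0.0141). Across the gels in tumor organoids, collagen I against Matrigel, 4 were higher and 4 lower, with Relb at -0.70 ± 0.17 (adjusted p = 0.0124), Nfkb2 at -0.87 ± 0.20 (adjusted p = 0.0111), Bcl3 at -1.02 ± 0.20 (adjusted p = 0.00602), the kinase Tbk1 at 1.15 ± 0.25 (adjusted p = 0.00813) and Map3k7, the kinase TAK1, at 1.14 ± 0.19 (adjusted p = 0.00302). The share over all genes was 27.9% there. Of the 8 gel calls 7 remained under quantile normalization and 7 with the authors' values but 1 under normexp, where Map3k7 was -0.06 and the calls of Nfkb2, Bcl3 and Tbk1 were lost. The Relb gel call was lost in all 3 of these scalings, with adjusted p of 0.0504, 0.0687 and 0.102.

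Of 18 tested genes known to be induced by TNF through NF-kB, 12 were higher and 1 lower in tumor Matrigel than in normal Matrigel (median 1.83), and 12, 12 and 11 of these 13 calls remained under quantile normalization, normexp and the authors' values. In tumor collagen I against tumor Matrigel 2 were higher and 6 lower (median -0.56), of which 6, 4 and 6 remained. Of all genes 51.8% (25.9% higher, median 0.09) and 27.9% (12.2% lower, median -0.05) were called in these comparisons. The chemokine Ccl5 was higher in tumor Matrigel than in normal Matrigel (4.71 ± 0.40, adjusted p = 3.11e-05) and lower in tumor collagen I than in tumor Matrigel (-2.38 ± 0.40, adjusted p = 0.00335). Ccl20 gave 3.97 ± 0.40 (adjusted p = 6.5e-05) and -1.46 ± 0.40 (adjusted p = 0.0211) in these comparisons, and Ier3, an early response gene, 2.66 ± 0.41 (adjusted p = 0.00056) and -1.27 ± 0.41 (adjusted p = 0.0397). Gadd45b was lower in tumor collagen I than in tumor Matrigel (-1.56 ± 0.47, adjusted p = 0.032) and the iron-binding secreted protein Lcn2 gave -1.22 ± 0.26 (adjusted p = 0.00818). The gel call of Ier3 was lost in all 3 other scalings (-0.97 to -0.73, adjusted p from 0.118 to 0.145), that of Gadd45b under quantile normalization and with the authors' values (adjusted p = 0.0645 and 0.0654), and that of Lcn2 under normexp (adjusted p = 0.0753). The chemokine Ccl2 was higher there (1.82 ± 0.48, adjusted p = 0.0194). In tumor collagen I against normal collagen I, 4 of the 18 were higher and 0 lower, with the chemokines Cxcl2 at 1.78 ± 0.24 (adjusted p = 0.0011) and Ccl5 at 1.57 ± 0.40 (adjusted p = 0.0353), both lost under normexp (adjusted p = 0.0537 and 0.0528). For Vcam1, an adhesion molecule, the signs were opposite to those of Ccl5, at -3.43 ± 0.43 in tumor Matrigel against normal Matrigel (adjusted p = 0.0002) and 3.13 ± 0.43 in tumor collagen I against tumor Matrigel (adjusted p = 0.00174). It was well above background on 1 of 3 tumor Matrigel arrays, and both calls were lost under normexp (-0.39, adjusted p = 0.479, and 0.30, adjusted p = 0.628). Vcam1 is also known from endothelium and fibroblasts, whose marker sums were lower in tumor organoids as given with the marker genes; their part was not tested.

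In normal organoids none of the 4 lists had a gene called between collagen I and Matrigel, where limma called 8 of 18274 genes. The difference of the gel effects was called in 2.67% of all genes, 1.34% higher and 1.33% lower. Of 10 tested other-named members 0 were higher and 1 lower (Lta, -1.71 ± 0.34, adjusted p = 0.0375), and none of 20 adaptors was called. Of 25 NF-kB genes 1 was higher (Map3k7, 1.21 ± 0.26, adjusted p = 0.0443) and 3 were lower (Bcl3, Relb and Nfkb2, at -1.46, -1.33 and -1.25). Of 18 induced genes 0 were higher and 2 lower. Those 2 were Ccl5 (-3.14 ± 0.57, adjusted p = 0.031) and Ccl20 (-2.58 ± 0.56, adjusted p = 0.0443). The 4 NF-kB calls became 1 under quantile normalization, 0 under normexp and 1 with the authors' values. Ccl20 was lost in all 3 of these scalings (adjusted p from 0.0698 to 0.114), Ccl5 under normexp (adjusted p = 0.0912), and Lta under normexp (0.221) and with the authors' values (0.0615). With the mouse as a replicate block none of these differences of gel effects passed, since no gene of 18274 did.

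**Figure D4:**
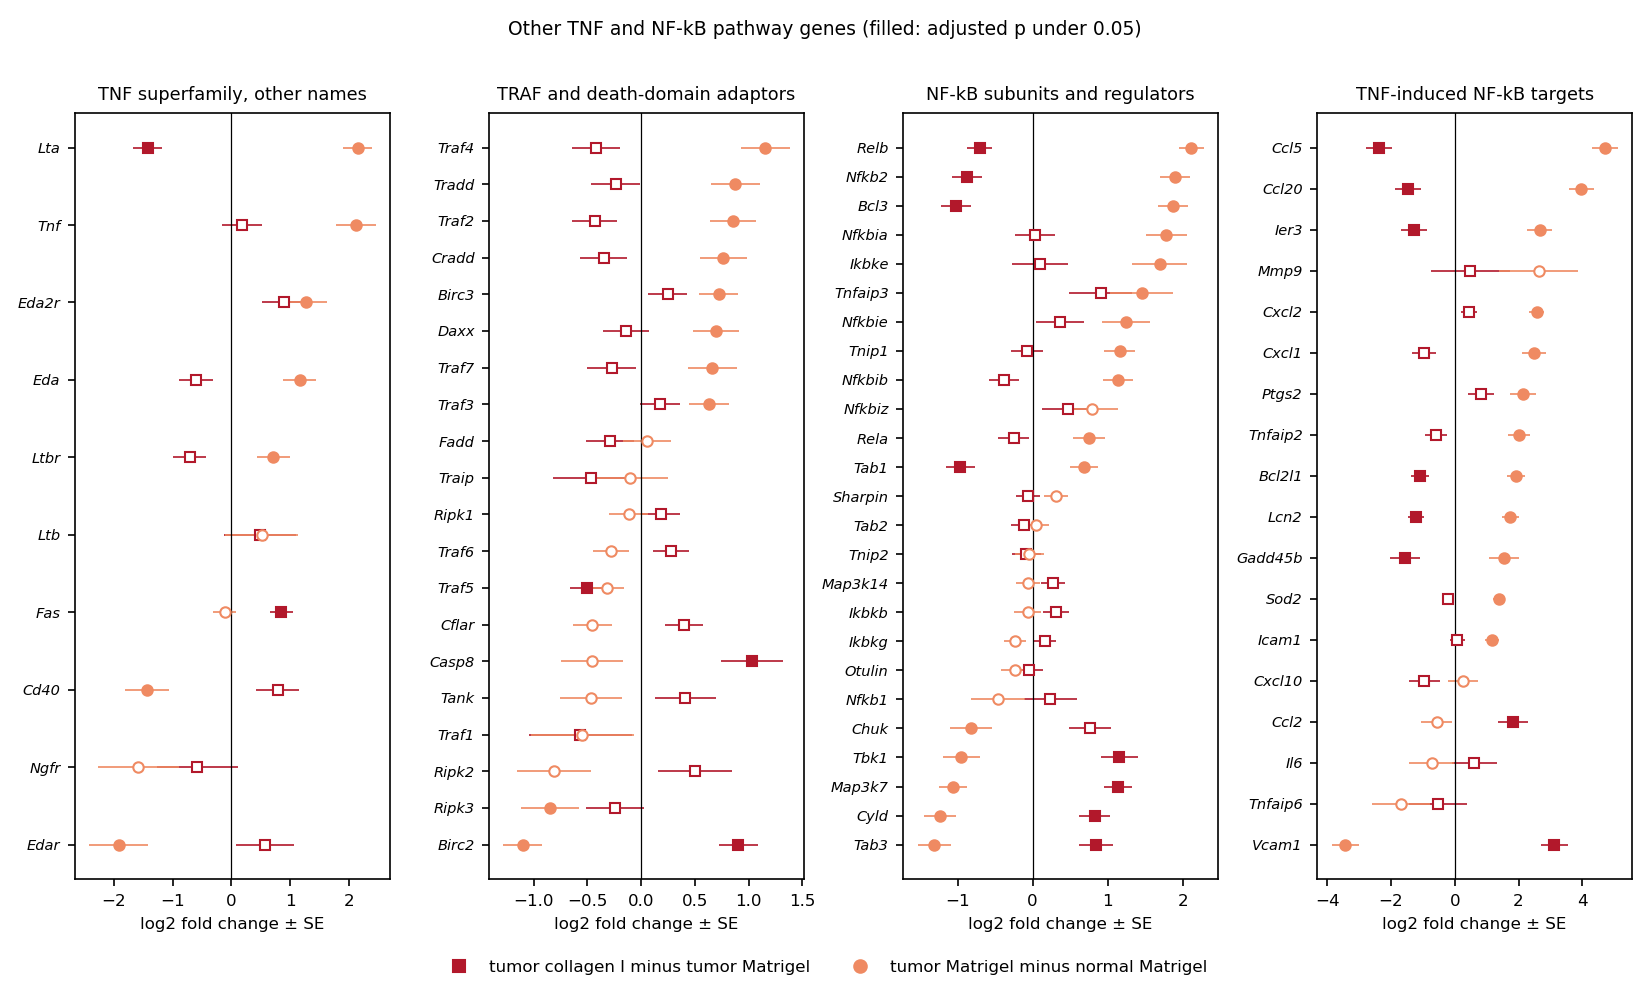
Log2 differences with SE bars (horizontal axis) of genes in 4 pathway lists (rows), as squares for tumor collagen I minus tumor Matrigel and circles for tumor Matrigel minus normal Matrigel, filled where the adjusted p was under 0.05. In the list of genes induced by TNF, 2 squares are filled right of 0 and 6 left of it, and 12 of 18 circles are filled right of 0 and 1 left of it.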

How the data were processed

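RNA of mouse mammary organoids was amplified, labelled with Cy3 and hybridised to 1-colour Agilent arrays (design 014868), per the labels' protocols. The authors deposited scanner output, and the intensity used is its processed signal, which follows spatial detrending, with low values replaced by surrogates, per the file headers, which name Feature Extraction 9.5, while the submitters' processing notes name 9.1. Of 14 arrays, 12 of batch 2 were compared, and 2 of batch 1 (repeats of normal Matrigel A and B) entered as an alternative. The authors' deposited log2 values were another alternative, and the sources used here do not give their centring.

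From each log2 intensity the 75th percentile of its array was subtracted, with control spots and outlier-flagged spots removed, and repeated spots of 1 probe were averaged. Each gene was represented by its passing probe with the highest mean, where a passing probe had all arrays of some group well above background and 2 or more values per group. limma 3.58.1 (run in R 4.3.3) was fitted over 18274 genes on group means (8 residual and 2.75 prior degrees of freedom), with Benjamini-Hochberg adjustment in each of 5 comparisons and a threshold of 0.05. The fit was also run on simulated data with independent errors, which held no correlation within mouse or slide. Its outcome is not given here. With 3 arrays a group, the smallest exact permutation p is 0.1, and the number of arrays limits the precision. Mice are separate animals, so the spread includes that between animals.

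The label's letters mark the mouse, so they pair arrays across gels; deviations of the paired arrays from their group means had correlations of -0.058 (tumor mouse A), 0.323 (tumor B), 0.419 (tumor C), 0.240 (normal A) and -0.243 (normal B). Between tissues no mouse is shared. Members and lists were chosen with earlier results of these data known, and 1 ligand of the family is not reported here. Every member is accounted for: those called get the value of every array, and the others mostly a range. From each further list up to 5 called genes per comparison and direction were eligible, those with the largest change. Probe coordinates (mm7) are those of the file headers, upstream windows are RefSeq's (GRCm38.p6), and RefSeq held a window for 25 of the 33 members. Alternatives were quantile normalization, normexp with offset 50, the authors' values, other filters and probe rules, batch 1 averaged in, mouse and slide as blocks, and leaving out each array.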

Additional observations from a re-analysis of the deposited data

Results flagged for a closer look

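Both results given here are differences of a gel effect between the tissues, called by the test of that difference itself. Tnfrsf1b was lower in tumor collagen I than in tumor Matrigel while its normal organoids had the opposite sign, and the difference of the gel effects was -2.91 ± 0.54 (adjusted p = 0.0333, 3 arrays a group). For Tnfrsf21 it was -1.57 ± 0.26 (adjusted p = 0.0249). Over all alternatives the difference ranged from -3.33 to -1.81 for Tnfrsf1b and from -1.76 to -1.21 for Tnfrsf21, with adjusted p between 0.0113 and 0.127 and between 0.0111 and 0.153. A second probe for Tnfrsf1b gave -0.71 (adjusted p = 0.429), and the other probes for Tnfrsf21 gave -1.30 (adjusted p = 0.0511) and -0.77 (adjusted p = 0.241).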

How the results depend on the processing

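Of 25 calls of members in the 5 comparisons, 10 were kept under every alternative run: 8 of 14 between tumor Matrigel and normal Matrigel and 2 of 8 between tumor collagen I and tumor Matrigel. The 14 calls between the tissues in Matrigel ranged from 10 to 17, and between normal collagen I and normal Matrigel the count was 0 throughout. For tumor collagen I against tumor Matrigel the 8 calls became 4 under normexp and 5 with slide as a fixed block, and ranged from 4 to 10 when 1 array was left out, with 4 without tumor collagen I A, 4 without tumor Matrigel B and 5 without tumor Matrigel C. For tumor collagen I against normal collagen I the 1 call became 2 with quantile normalization, each probe as a feature or mouse as a random block. The count was 3 with the authors' values, the mean of a gene's probes, batch 1 averaged in or slide as a random block. It was 0 without the filter or with slide as a fixed block, and ranged from 0 to 5 when 1 array was left out. With the filter on all 12 arrays it was also 0, but Tnfrsf9, the member called, was not among the 17 members tested there. For the difference of the gel effects the 2 calls became 0 under normexp, without the filter, with the mean of a gene's probes or with the replicate block, 1 with the authors' values and 4 with batch 1 averaged in or slide as a random block, and ranged from 0 to 4 when 1 array was left out. With the replicate block the gel calls in tumor organoids numbered 10, Tnfrsf9 and Tnfrsf19 added, and apart from these and the 2 lost calls of the difference of the gel effects the block changed no call; it could not be fitted between tissues, which share no mouse. Of the called differences of single members, 2 reversed their sign, both under normexp between tumor Matrigel and normal Matrigel: Tnfrsf13c (0.75) and Tnfsf18 (0.72). Signs of differences that were not called were not counted. Normexp also moved the median of all genes, to -0.33 between tumor collagen I and tumor Matrigel, 0.45 between tumor Matrigel and normal Matrigel, 0.16 between tumor collagen I and normal collagen I and -0.29 for the difference of the gel effects, and the higher share of called genes in the last 2 to 57.0% (from 42.2%) and 10% (from 50.2%). In normal organoids that share was 87.5% of 8 genes, against 72.2% with quantile normalization, 66.7% with the authors' values and 100% under normexp. Counts over all genes for the difference of the gel effects lay between 0 with the replicate block and 2232 with batch 1 averaged in around 488 in the fit as reported. For tumor collagen I against tumor Matrigel they lay between 1254 (normexp) and 6381 (mouse as a random block) around 5098. For tumor collagen I against normal collagen I they lay between 193 (slide as a fixed block) and 1903 (without tumor collagen I A) around 1582, and for normal collagen I against normal Matrigel between 0 and 71 around 8. Each probe as a feature is left out of these ranges because it counts probes, 7744 and 2073 for tumor collagen I against tumor Matrigel and against normal collagen I. The cause of these ranges was not tested. A block by scan date was not run, since the arrays compared were scanned together and scan times follow the slides. Spots near background limit the size of differences of dim members.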
